A study of Homo sapiens with 12 samples.

Results

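The 10 genes described here encode heat shock chaperones: HSPA1A, HSPA1B and HSPA8 of the HSP70 family, HSPH1 of the HSP110 family, the J-domain protein DNAJB1, the HSP90 proteins HSP90AA1 and HSP90AB1, the small heat shock protein HSPB1, and the chaperonin pair HSPD1 and HSPE1. They were taken by symbol, with 1 Ensembl identifier each, from the 57879 gene identifiers measured, and their annotated pseudogenes were not counted as members. The first 8 proteins work mainly in the cytosol and nucleus, whereas HSPD1 and HSPE1 work mainly in the mitochondrial matrix, so the set is not purely cytosolic. All 10 passed the filter on low values, and the lowest FPKM of any of them was 6.25.

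RNA was sequenced from A549, an established human lung adenocarcinoma line, after stable lentiviral infection, and the labels list 12 samples. The 8 analysed here were 2 sh-TAF15 libraries (replicates 2 and 3; an shRNA that lowers TAF15, a FET family protein that binds RNA), 1 sh-NC library (replicate 2; its control construct), 2 TIF1γ libraries (replicates 2 and 3; an expression vector for TIF1γ, the transcriptional regulator encoded by TRIM33) and 3 vector libraries (replicates 1 to 3; the empty vector). The other 4 samples are not analysed here. All lines are A549 cells that carry an integrated construct, and the labels say neither whether a line is a clone or a pool nor whether replicates came from separate infections, so p-values measure only the spread between these cultures.

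Levels are in FPKM, a fragment number divided by transcript length and by library size, and sums per library ran from 881293 to 1356634. TRIM33, the gene that was overexpressed, had 8.03 and 6.14 FPKM in TIF1γ libraries, against 2.23, 2.10 and 1.27 FPKM in vector libraries, and its difference was 1.44 on the log2 scale (SE 0.27, limma adjusted p = 0.13). No identifier was matched to TAF15 here, so its level in the knockdown was not checked. KRT8 and KRT18, keratins of simple epithelia, were each listed at 0 in both TIF1γ libraries. They lay between 1129 and 2235 FPKM in the sh-TAF15 and sh-NC libraries and between 4561 and 5747 FPKM in vector libraries. Genes with a 0 beside 100 FPKM or more were set aside as possible failed estimates, and both of these keratins are among them. The zeros therefore do not show that TIF1γ cells lacked these transcripts. Of the other keratins on the epithelial list, KRT7 had 3746 and 2356 FPKM in TIF1γ libraries and 1764 to 1992 FPKM in vector libraries. KRT19 had 61.5 and 61.7 FPKM in TIF1γ libraries and 26.9 to 41.6 FPKM in vector libraries. In the sh-TAF15 and sh-NC libraries KRT7 had 1516 to 1922 FPKM and KRT19 0.243 to 0.775 FPKM. EPCAM had 0.436 to 1.87 FPKM there and 1.25 to 3.75 FPKM in TIF1γ and vector libraries. CDH1 had 0.857 FPKM in the sh-NC library and 4.27 to 10.9 FPKM in all others, and NAPSA was at 1.76 FPKM at most. The part of these differences in the chaperone values was not tested. Of the lung markers, SFTPB was at 0.0181 FPKM at most, NKX2-1 at 0.207 FPKM at most and SFTPC at 1.42 FPKM at most, while summed endothelial markers stayed at 0.298 FPKM or less. The 10 chaperones took 0.460% and 0.390% of the FPKM sum in sh-TAF15 libraries, 0.5005% in the sh-NC library, 0.270% and 0.227% in TIF1γ libraries, and 0.428%, 0.380% and 0.280% in vector libraries.

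One library stood apart for these genes. In vector replicate 3 all 10 chaperones had their lowest value of the 3 vector libraries, as did 40% of the 13907 genes tested. TIF1γ replicate 3 was below TIF1γ replicate 2 for 8 of the 10, as it was for 44.3% of genes tested. Results that rest on vector replicate 3 are therefore given with and without it.

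Heat shock chaperones hold unfolded or partly folded proteins and let them refold, assemble or be degraded. HSP70 proteins bind short exposed stretches in a cycle driven by ATP, which J-domain proteins start and HSP110 exchange factors end by releasing ADP, and HSP90 proteins take over many signalling clients later in folding. HSPB1 holds unfolding proteins without ATP, and HSPD1 and HSPE1 form the barrel and the lid of the mitochondrial chaperonin. Under proteotoxic stress the transcription factor HSF1 forms trimers and binds heat shock elements, inverted repeats of the letters GAA, in the promoters of many of these genes. In lung adenocarcinoma cells, as in other tumour cells, HSP70 and HSP90 proteins are abundant without added heat.

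The heat shock element letters upstream of the members are shown because they are what the promoters of this family are known for. The RefSeq promoter table (GRCh38.p14, 250 bases before to 50 bases after each listed start) held 16 windows for the 10 members, and every member matched at least 1. A motif of 3 units, GAANNTTCNNGAA or TTCNNGAANNTTC, which cover both strands, was present in windows of 4 members (HSPA8, HSP90AA1, HSP90AB1 and HSPD1), and in those of 0.608% of the 27305 genes in the table. The 2-unit motif, GAANNTTC or TTCNNGAA, each its own reverse complement and contained in every 3-unit match, was present for 8 of 10 members and for 16.2% of all genes. In the stretches below, written 5′ to 3′ on the gene's strand, capitals mark every letter that belongs to a motif, and the last capital of HSP90AA1 opens a further TTCTGGAA that runs past the stretch.
HSPA1A: aaaccctgGAATATTCccgacctg
HSPA1B: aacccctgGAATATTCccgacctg
HSPA8: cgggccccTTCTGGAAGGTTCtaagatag
DNAJB1: gggctctgGAAGCTTCcgccggac
HSP90AA1: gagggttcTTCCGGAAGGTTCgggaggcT
HSP90AB1: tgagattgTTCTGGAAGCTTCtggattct
HSPB1: taacgagaGAAGGTTCcagatgag
HSPD1: attTTCTGGAAAGTTCTGGAAccgagcga
These stretches lie at chr6:31815429-31815452 (plus strand), chr6:31827625-31827648 (plus), chr11:123062171-123062199 (minus), chr19:14518429-14518452 (minus), chr14:102087112-102087140 (minus), chr6:44247823-44247851 (plus), chr7:76302483-76302506 (plus) and chr2:197500060-197500088 (minus), in the order printed. The windows of HSPH1 and HSPE1 held neither motif, which says only that these letters are not in those windows. HSPD1 and HSPE1 stand head to head on chromosome 2, and the HSPE1 window shares 204 bases with 1 of the HSPD1 windows. The HSPD1 stretch printed above lies in another HSPD1 window, which shares 0 bases with the HSPE1 window. The HSPA1A and HSPA1B windows were identical at 235 of 249 aligned upstream bases.

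Among the HSP70 genes, HSPA8, the constitutive HSP70 that serves folding in unstressed cells, was by far the most abundant. HSPA8 had 1610 and 1426 FPKM in sh-TAF15 libraries, 1735 FPKM in the sh-NC library, 681 and 515 FPKM in TIF1γ libraries, and 1242, 1097 and 799 FPKM in vector libraries. Both TIF1γ libraries lay below all 3 vector libraries, and in deposited FPKM the 3 shRNA libraries lay above all others. HSPA1A, a heat-inducible HSP70, had 20.5 and 34.4 FPKM in sh-TAF15 libraries, 25.3 FPKM in the sh-NC library, 39.9 and 11.9 FPKM in TIF1γ libraries, and 37.4, 35.3 and 15.7 FPKM in vector libraries. Its near copy HSPA1B had 17.8 and 23.0 FPKM in sh-TAF15 libraries, 18.7 FPKM in the sh-NC library, 20.6 and 9.88 FPKM in TIF1γ libraries, and 19.8, 21.2 and 11.2 FPKM in vector libraries. For both inducible genes the groups overlapped, and the low libraries were TIF1γ replicate 3 and vector replicate 3. The HSPA1A and HSPA1B transcripts were identical at 94.5% of aligned bases, so the split of reads between them is uncertain.

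The partners of HSP70 differed from each other. HSPH1, an HSP110 protein that acts as an exchange factor for HSP70, had 28.2 and 29.8 FPKM in sh-TAF15 libraries, 34.1 FPKM in the sh-NC library, 6.25 and 6.74 FPKM in TIF1γ libraries, and 20.3, 23.3 and 9.39 FPKM in vector libraries. Every TIF1γ value was below every vector value, and every shRNA value was above all 5 others. DNAJB1, a J-domain protein that delivers clients to HSP70 and starts ATP hydrolysis, varied least, with 78.0 and 83.6 FPKM in sh-TAF15 libraries, 78.0 FPKM in the sh-NC library, 119.9 and 86.2 FPKM in TIF1γ libraries, and 97.1, 92.4 and 79.0 FPKM in vector libraries. Its highest value was 1.54 times its lowest, and TIF1γ replicate 2 was the highest library.

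Of the HSP90 genes, the inducible HSP90AA1 spanned the widest range of the 10, 8.46 times from lowest to highest. It had 398 and 458 FPKM in sh-TAF15 libraries, 478 FPKM in the sh-NC library, 83.0 and 56.5 FPKM in TIF1γ libraries, and 305, 358 and 86.3 FPKM in vector libraries. Vector replicate 3 lay just above the higher TIF1γ library and far from the other vector libraries. HSP90AB1, the constitutive form, had 727 and 719.8 FPKM in sh-TAF15 libraries, 814 FPKM in the sh-NC library, 567.5 and 407 FPKM in TIF1γ libraries, and 691, 637 and 449 FPKM in vector libraries. The TIF1γ and vector libraries overlapped for HSP90AB1, and the shRNA libraries were the 3 highest.

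HSPB1, the small heat shock protein HSP27, ran the other way. It had 390.4 and 545 FPKM in sh-TAF15 libraries, 317 FPKM in the sh-NC library, 1665 and 786 FPKM in TIF1γ libraries, and 781, 933 and 685 FPKM in vector libraries. The 3 shRNA libraries were the lowest 3, and in both TIF1γ libraries HSPB1 was the most abundant of the 10 genes, ahead of HSPA8, whereas HSPA8 led in the other 6 libraries.

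The mitochondrial pair had its highest values in the shRNA libraries. HSPD1, the HSP60 barrel, had 363 and 362 FPKM in sh-TAF15 libraries, 462 FPKM in the sh-NC library, 109 and 131 FPKM in TIF1γ libraries, and 274, 264 and 151 FPKM in vector libraries. HSPE1, the HSP10 lid, had 628 and 757 FPKM in sh-TAF15 libraries, 622 FPKM in the sh-NC library, 365 and 181.5 FPKM in TIF1γ libraries, and 305, 454 and 211 FPKM in vector libraries. TIF1γ and vector libraries were apart for HSPD1 and overlapped for HSPE1.

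**Figure D1:**
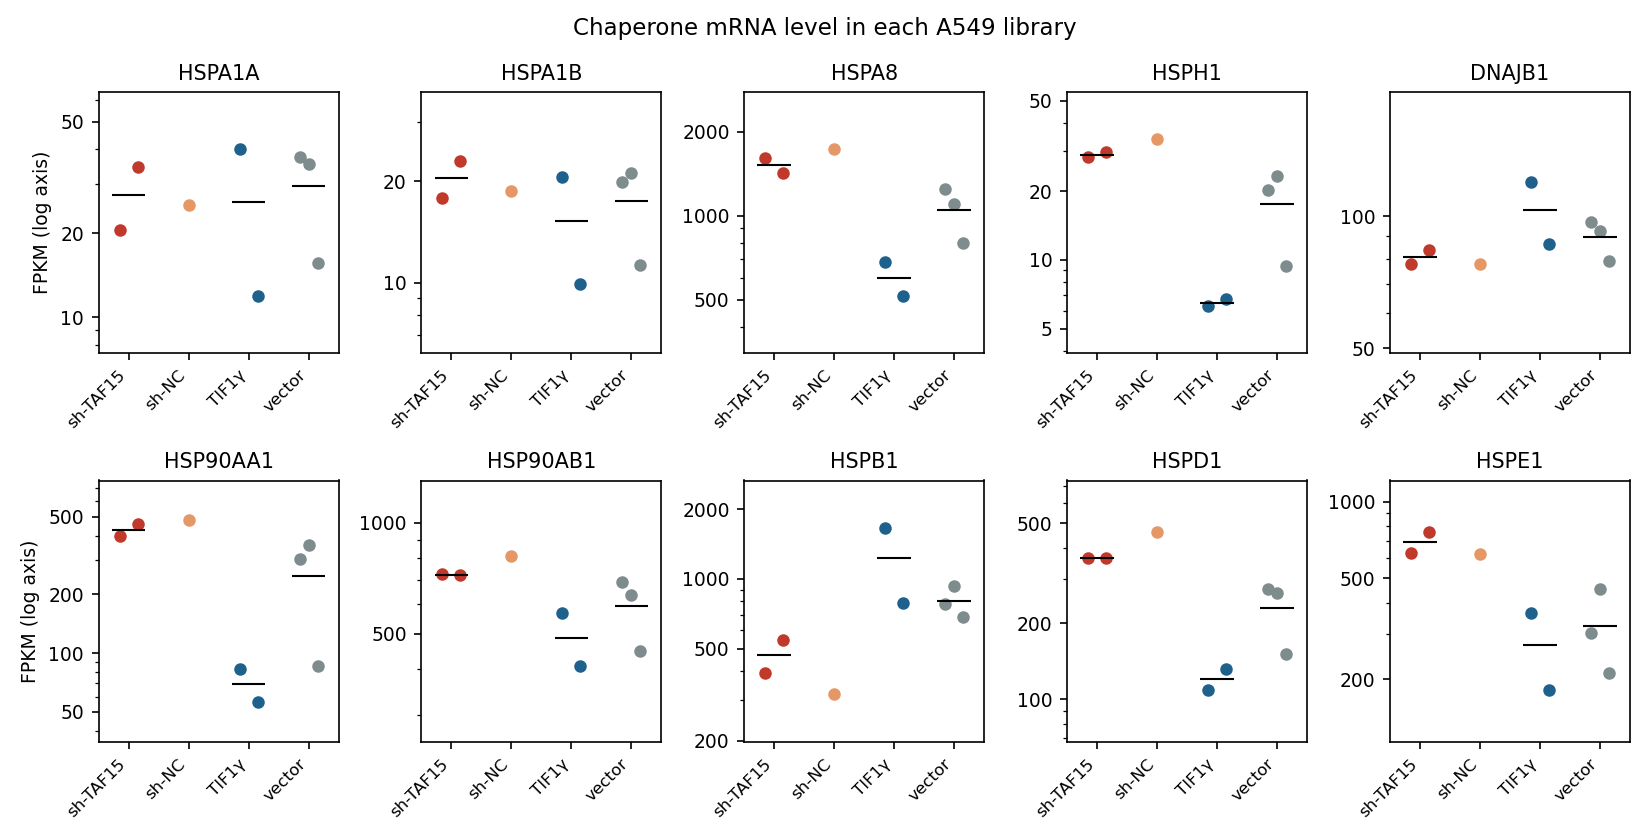
FPKM (log axis) of each of the 10 genes in the sh-TAF15, sh-NC, TIF1γ and vector libraries; 1 point is 1 library and the line is the group mean. HSPA8, HSPH1, HSP90AA1 and HSPD1 were lower in both TIF1γ libraries than in every vector library, and HSPB1 was at its lowest, 317 to 545 FPKM, in the shRNA libraries.

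The order of group means was sh-NC, sh-TAF15, vector, TIF1γ for HSPA8, HSPH1, HSP90AA1, HSP90AB1 and HSPD1. HSP90AA1 averaged 428 ± 42.5 FPKM (SD, n = 2) in sh-TAF15 libraries, 69.7 ± 18.7 FPKM (SD, n = 2) in TIF1γ libraries and 249.7 ± 144 FPKM (SD, n = 3) in vector libraries. HSPD1 averaged 363 ± 0.554 FPKM (SD, n = 2) in sh-TAF15 libraries, 120.0 ± 16.1 FPKM (SD, n = 2) in TIF1γ libraries and 229.6 ± 68.0 FPKM (SD, n = 3) in vector libraries. HSPB1 averaged 468 ± 109 FPKM (SD, n = 2) in sh-TAF15 libraries, 1225 ± 621 FPKM (SD, n = 2) in TIF1γ libraries and 799.5 ± 125 FPKM (SD, n = 3) in vector libraries, so its TIF1γ and vector means differed by less than the spread between TIF1γ replicates. The lone sh-NC library has no spread of its own.

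The first question was whether raised TIF1γ was accompanied by other chaperone levels. None of the 10 genes passed the test, and 8 of the 10 fold changes were below 0, with a median of -0.39 on the log2 scale against 0.01 over all genes tested. Tests used limma on log2(scaled FPKM + 1) with Benjamini-Hochberg adjustment across the whole table, and genes with an adjusted p under 0.05 are called. A fold change on this scale understates the change of weakly expressed genes. Calls were made for 0 of 10 members and for 0.0216% of all genes. In these bulk samples, fewer cells of a type and less RNA per cell cannot be told apart. The sum of 5 leukocyte markers was 29.1 to 35.1 FPKM in TIF1γ libraries and 11.7 to 23.6 FPKM in vector libraries, with CD14 alone above 0.192 FPKM and CD3E at 0, and its part in these values was not tested.

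At an unadjusted p under 0.05, 4 of the 10 were lower in TIF1γ cells and none was higher, where 12.0% of all genes were lower at that level and 7.72% higher. These 4 were HSP90AA1, HSPH1, HSPD1 and HSPA8, and they were also the 4 whose TIF1γ libraries all lay below the vector libraries, a state that 19.9% of all genes shared. HSP90AA1 differed by -1.71 on the log2 scale (SE 0.54, adjusted p = 0.20, limma), and HSPH1 by -1.32 (SE 0.32, adjusted p = 0.19, limma). HSPD1 differed by -0.99 (SE 0.28) and HSPA8 by -0.89 (SE 0.26), each with a limma adjusted p of 0.19. The remaining values were -0.41 for HSPA1A, -0.38 for HSP90AB1, -0.36 for HSPE1, -0.31 for HSPA1B, 0.09 for DNAJB1 and 0.43 for HSPB1. DNAJB1 turned to -0.12 when libraries were scaled to the same sum.

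Without vector replicate 3, 3 of the 10 fell in TIF1γ cells, with 2.17% of all genes called. HSP90AA1 fell by 2.33 on the log2 scale (SE 0.25, limma adjusted p = 0.0147), HSPH1 by 1.68 (SE 0.22, limma adjusted p = 0.0251) and HSPD1 by 1.24 (SE 0.26, limma adjusted p = 0.0463). Over all genes tested, 298 were called without that library, against 3 with it. It was singled out because all 10 chaperones were lowest there among vector libraries. Leaving it out therefore raises their vector means by construction, and these calls are no separate support for a fall.

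Base composition moved with the same comparison. Across 11720 protein-coding genes, which are not independent replicates, the TIF1γ fold change had a Spearman correlation of 0.778 with transcript GC. HSPH1, HSPD1, HSP90AA1 and HSPA8 have the lowest GC of the 10, 40.0%, 44.2%, 45.2% and 47.0%, and HSPB1 has the highest, 64.3%. With the GC and length trend taken out of each library, HSP90AA1 differed by -1.45, HSPH1 and HSPA8 each by -0.78, HSPD1 by -0.72, and HSPB1 by -0.10, with no gene of the table called. In that fit HSPB1 and DNAJB1, at -0.10 each, changed sign.

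The comparison of TAF15 knockdown with its control showed no call among the chaperones. None of the 10 reached an adjusted p under 0.05 in limma, where 0.0575% of all genes did, and none reached an unadjusted p under 0.05, where 5.64% did. HSPB1 had the highest fold change, 0.48 on the log2 scale (SE 0.40), and HSPD1 the lowest, -0.40 (SE 0.38). HSPA8 was at -0.25, HSP90AB1 at -0.23 and HSP90AA1 at -0.22. The 95% interval of the difference ran from -1.23 to 0.42 for HSPD1 and from -1.89 to 1.45 for HSP90AA1, so at 2 libraries against 1 a change of either sign within these bounds could not be told from none. Because sh-NC is a single library, its variance was borrowed from the other groups.

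The TIF1γ and knockdown effects were also set against each other. In limma 0 of 10 members passed the test of the difference, where 0.0431% of all genes did, and 0 of 10 had an unadjusted p under 0.05, where 3.67% did. The difference of the effects was -1.49 for HSP90AA1 (95% interval -3.57 to 0.59) and -1.04 for HSPH1 (95% interval -2.17 to 0.10), each with a limma adjusted p of 0.999.

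Most member calls came from the comparison between the shRNA lines, with either shRNA, and the lines that carry vector or TIF1γ. HSPH1, HSP90AA1, HSPD1, HSPE1 and HSPA8 rose in the shRNA lines and HSPB1 fell, so 6 of 10 members were called, 5 higher and 1 lower. Of all genes 41.4% were called, 20.0% higher and 21.4% lower, which is the background to read the members' count against. The median over the members was 0.62 on the log2 scale, against 0.01 over all genes. Construct type, cell line and library cannot be told apart in this comparison, in which the groups were weighted equally. The sum of 5 fibroblast markers moved with it too, at 5.81 and 5.99 FPKM in sh-TAF15 libraries and 3.90 FPKM in the sh-NC library, against 0.378 to 0.604 FPKM in TIF1γ libraries and 0.332 to 1.17 FPKM in vector libraries. Of these markers 2 reached 1 FPKM in any library, DCN was at 0 in every library and PDGFRB at 0.464 FPKM at most, and their part in the result was not tested.

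HSP90AA1 rose by 1.72 on the log2 scale (SE 0.45, limma adjusted p = 0.0175) and HSPH1 by 1.33 (SE 0.26, limma adjusted p = 0.0018). For HSPD1 the rise was 1.15 (SE 0.24, limma adjusted p = 0.0024), for HSPE1 1.04 (SE 0.27, limma adjusted p = 0.0092) and for HSPA8 0.88 (SE 0.22, limma adjusted p = 0.0063). HSPB1 fell by 1.49 (SE 0.25, limma adjusted p = 0.00054). DNAJB1 at -0.44, HSP90AB1 at 0.36, HSPA1B at 0.14 and HSPA1A at -0.10 were not called, and HSPA1A turned to 0.07 without scaling and to 0.19 with libraries scaled to the same sum.

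After scaling, the shRNA libraries lay above all 5 others for HSPH1, HSPD1 and HSPE1, a state shared by 15.8% of all genes, and below all 5 for HSPB1 and DNAJB1, a state shared by 18.1%. For HSP90AA1, scaled levels of 366 and 408 FPKM in sh-TAF15 libraries and 451 FPKM in the sh-NC library overlapped the 378 FPKM of vector replicate 2. For HSPA8, scaled sh-TAF15 levels of 1482 and 1272 FPKM overlapped the 1337 FPKM of vector replicate 1. HSP90AA1 was no longer called without sh-TAF15 replicate 2 (adjusted p = 0.0776, limma) or without sh-TAF15 replicate 3 (adjusted p = 0.0739, limma). Transcript GC moved with this comparison too, with a Spearman correlation of -0.581 across the 11720 genes. With the GC and length trend removed, 5 of 10 members were called, where 30.8% of all genes were. HSPH1 was then at 0.73 (adjusted p = 0.0642, limma), no longer a call, and HSPB1 fell by 0.68 (adjusted p = 0.0147, limma), while HSPE1 rose by 1.24.

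Between the controls alone, sh-NC against vector, HSPB1 fell by 1.52 on the log2 scale (SE 0.37, limma adjusted p = 0.0189). It was the only call among the 10 members, where 11.1% of all genes were called, and it was lost at -0.78 (adjusted p = 0.077, limma) with the GC and length trend removed. HSPD1 was at 0.86 (SE 0.36, limma adjusted p = 0.14). This comparison shares its libraries with the one above.

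**Figure D2:**
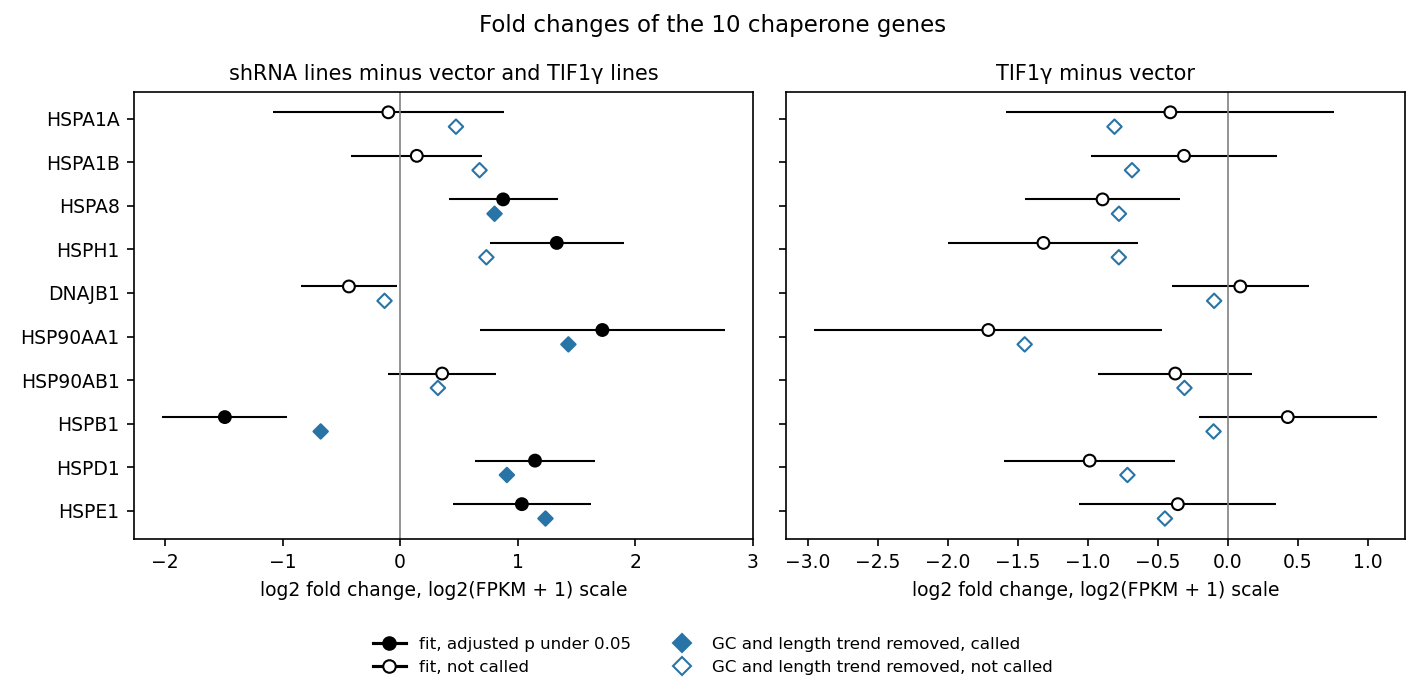
Log2 fold changes of the 10 genes in the shRNA lines against the vector and TIF1γ lines (left) and in TIF1γ against vector cells (right); circles with 95% intervals are the limma fit, diamonds the fit with the GC and length trend removed, and filled symbols have an adjusted p under 0.05. On the left 6 circles are filled, from HSPB1 at -1.49 to HSP90AA1 at 1.72, and on the right none is.

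Ratios within a library do not depend on how libraries are scaled. The ratio of HSP90AA1 to HSP90AB1 was 0.547 and 0.636 in sh-TAF15 libraries, 0.5875 in the sh-NC library, 0.146 and 0.139 in TIF1γ libraries, and 0.441, 0.562 and 0.192 in vector libraries. Both TIF1γ ratios were below every vector ratio. The ratio of HSPB1 to HSPA8 was 0.243 and 0.382 in sh-TAF15 libraries, 0.183 in the sh-NC library, 2.44 and 1.53 in TIF1γ libraries, and 0.629, 0.850 and 0.857 in vector libraries. These groups did not overlap, with the TIF1γ libraries highest and the shRNA libraries lowest. The ratios were not corrected for the GC trend, and HSPB1 has 64.3% GC and HSPA8 47.0%. With that trend and length removed, TIF1γ fold changes were -0.10 for HSPB1 and -0.78 for HSPA8, against 0.43 and -0.89 before. The share of all gene pairs that separate in this way was not measured.

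DNAJB1 relative to HSPA8 showed the same order. The ratio was 0.0484 and 0.0586 in sh-TAF15 libraries, 0.0449 in the sh-NC library, 0.176 and 0.167 in TIF1γ libraries, and 0.0782, 0.0843 and 0.0989 in vector libraries. HSPE1 to HSPD1, whose products work as barrel and lid, was 1.73 and 2.09 in sh-TAF15 libraries, 1.35 in the sh-NC library, 3.36 and 1.38 in TIF1γ libraries, and 1.11, 1.72 and 1.397 in vector libraries. These ratios overlapped between TIF1γ and vector libraries and between the shRNA libraries and the other 5, while both sh-TAF15 ratios were above the sh-NC ratio. Pseudogenes of HSPE1 were left out of HSPE1/HSPD1. Their share of the FPKM summed with HSPE1 was 9.02% to 12.2% in the shRNA libraries and 31.1% to 39.8% in the other 5. The part of this share in the ratio was not tested.

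Exact two-sided permutation tests were run for 7 ratios in both comparisons, 14 tests in all. For shRNA lines against the 5 other libraries, HSPB1/HSPA8 and DNAJB1/HSPA8 each gave an exact permutation p of 0.0357, the smallest this design allows, and 0.25 after Benjamini-Hochberg adjustment over the 14. For TIF1γ against vector the smallest p the design allows is 0.20, which HSP90AA1/HSP90AB1, HSPB1/HSPA8 and DNAJB1/HSPA8 reached in the exact permutation test. With these smallest p-values, no ratio in either comparison could have reached an adjusted p under 0.05 over the 14 tests. The adjusted values therefore cannot decide whether a ratio differed.

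**Figure D3:**
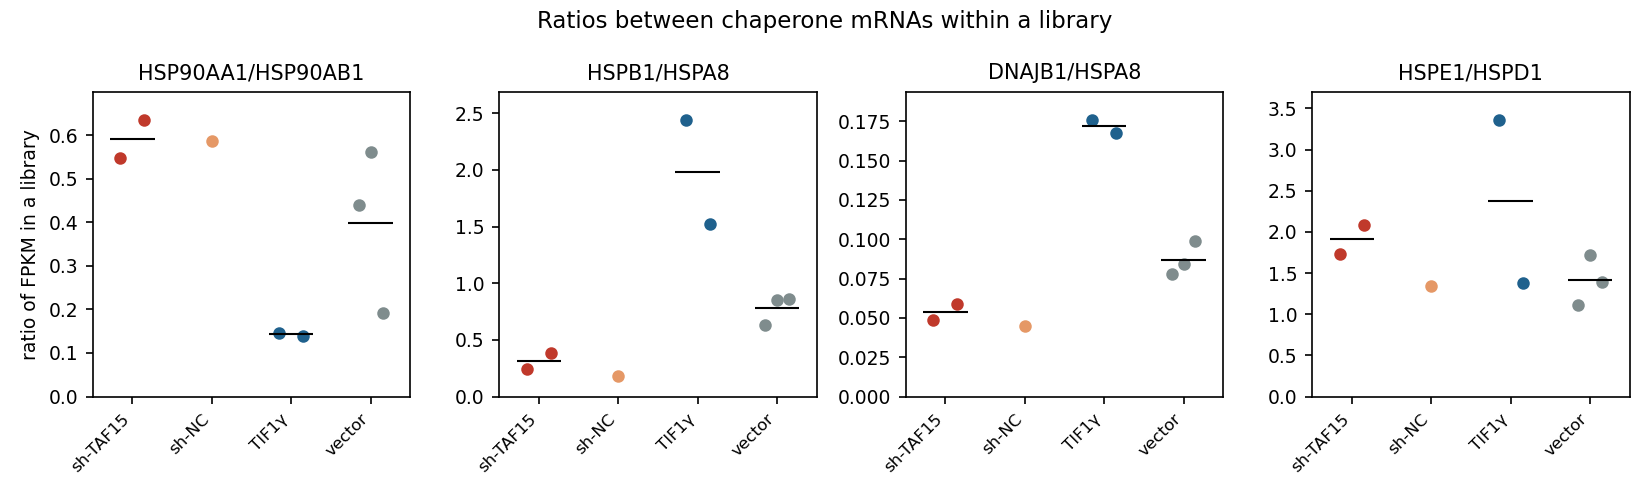
Ratios of FPKM within each library for 4 pairs of chaperones, by group; 1 point is 1 library and the line is the group mean. HSP90AA1/HSP90AB1 is lowest, 0.139 and 0.146, in the TIF1γ libraries, while HSPB1/HSPA8 and DNAJB1/HSPA8 are highest there and lowest in the shRNA libraries.

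Pseudogenes named after a member were found for 5 of the 10 genes, and those of HSPE1 took the largest share of FPKM. HSPE1P2, a processed copy identical to HSPE1 at 97.7% of aligned transcript bases, had 55.3 and 98.7 FPKM in sh-TAF15 libraries, 58.4 FPKM in the sh-NC library, 165 and 86.8 FPKM in TIF1γ libraries, and 178, 237 and 139 FPKM in vector libraries. Over all 26 HSPE1 pseudogenes, the copies took 9.30% and 12.2% of the summed FPKM in sh-TAF15 libraries, 9.02% in the sh-NC library, 31.1% and 32.4% in TIF1γ libraries, and 37.0%, 34.4% and 39.8% in vector libraries. The shRNA libraries had the highest HSPE1 values and the lowest pseudogene shares. When HSPE1 was summed with its copies, its rise in the shRNA lines was no longer called, at 0.58 (SE 0.26, adjusted p = 0.0914, limma), so that call depends on whether the copies are counted with the gene. For HSPD1, HSPA8 and DNAJB1 the pseudogene share was 1.39%, 0.041% and 0% at most, and for HSPB1 it was 3.12% at most.

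**Figure D4:**
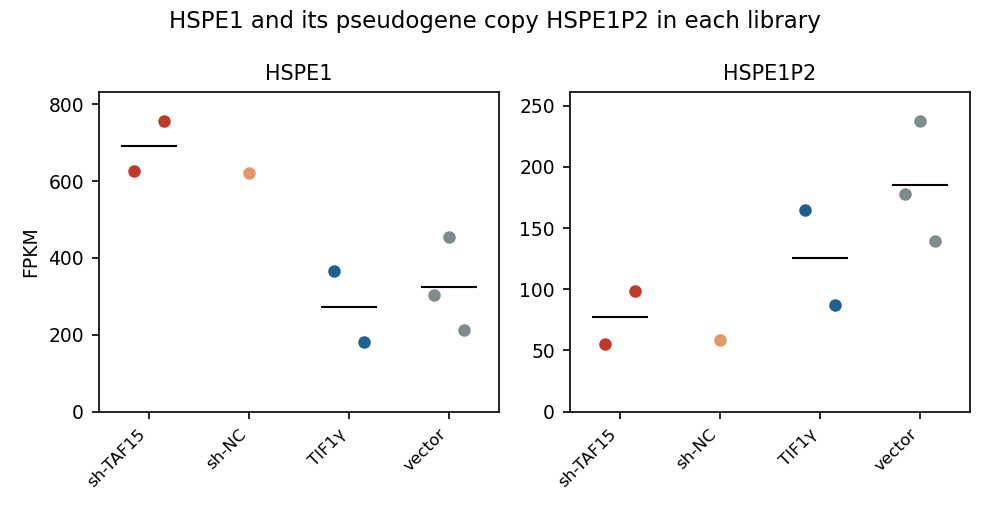
FPKM of HSPE1 (left) and its pseudogene copy HSPE1P2 (right) in each library by group; 1 point is 1 library and the line is the group mean. HSPE1 is highest, 622 to 757 FPKM, in the shRNA libraries, while HSPE1P2 lies between 139 and 237 FPKM in the vector libraries, which overlap the TIF1γ libraries at 86.8 and 165 FPKM.

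The genes that work with these chaperones were counted in 6 lists of 76 genes, of which 75 were matched and 68 tested. In TIF1γ against vector cells 0 of 68 were called in limma, and at an unadjusted p under 0.05 21 were lower and 6 higher, where 0.0216% of all genes were called and 12.0% were lower and 7.72% higher at the unadjusted level. DNAJA1, a J-domain protein that works with HSPA8, stood at -1.29 on the log2 scale (SE 0.35, limma adjusted p = 0.19), the value farthest from 0 in the lists. The other genes with the lowest p of each list were DNAJB4 at -0.86, the HSP110 relative HSPA4 at -1.02, HSPA13 at -0.97, the chaperonin subunit CCT8 at -0.92, the prefoldin subunit VBP1 at -1.01, the HSP90 co-chaperones SUGT1 at -0.87 and FKBP5 at -0.86, the mitochondrial HSP70 HSPA9 at -0.68 and the mitochondrial protease YME1L1 at -0.89. Of the heat shock factors, HSF1 was at 0.54 and HSF2 at -0.77. With the GC and length trend removed these values lay nearer to 0, at -0.90 for DNAJA1, -0.28 for DNAJB4, -0.59 for HSPA4, -0.36 for HSPA13, -0.61 for CCT8, -0.53 for VBP1, -0.25 for SUGT1, -0.37 for FKBP5, -0.31 for HSPA9, -0.38 for YME1L1, 0.07 for HSF1 and -0.30 for HSF2. Without vector replicate 3, DNAJA1 fell by 1.73, HSPA4 and VBP1 each by 1.33 and CCT8 by 1.12, with limma adjusted p-values from 0.0251 to 0.0456. In that fit 2.17% of all genes were called. Vector replicate 3 was the lowest vector library for each of these genes too, so leaving it out raises their vector means by construction. These calls are likewise no separate support for a fall.

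In the shRNA lines 25 of the 68 were higher and 10 lower, against 20.0% and 21.4% of all genes. With the GC and length trend removed, 17 of these 35 calls remained, 15 higher and 2 lower. That fit called 18 list genes higher and 3 lower in all. The calls it added were STIP1 at 0.68, CDC37 at 0.42, SGTA at 0.60 and PFDN4 at -0.77. The J-domain list moved most, with 6 of 9 tested members higher and 1 lower and a median of 1.17 on the log2 scale. DNAJB4 rose by 1.59 (SE 0.23, limma adjusted p = 0.00018) and DNAJB6, a suppressor of protein aggregation, by 1.19 (SE 0.19, limma adjusted p = 0.00035). DNAJA1 rose by 1.42 and DNAJA2 by 1.00, whereas DNAJB2 fell by 1.22. With the trend removed these 5 were still called, at 1.00 for DNAJB4, 1.399 for DNAJB6, 1.05 for DNAJA1, 0.53 for DNAJA2 and -0.81 for DNAJB2.

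Of 14 genes for the TRiC chaperonin, which folds actin and tubulin, and for prefoldin, which delivers them to it, 7 rose and none fell, with a median of 0.45, led by VBP1 at 1.38 and CCT2 at 1.06. Among 20 exchange factors and HSP90 co-chaperones 7 rose and 4 fell, with a median of 0.23. BAG2, an inhibitor of the ubiquitin ligase STUB1, rose by 1.42 and the stress-induced exchange factor BAG3 by 1.12, while BAG1 fell by 1.24. These 3 were also still called with the trend removed, at 0.75 for BAG2, 1.57 for BAG3 and -1.35 for BAG1, as were VBP1 at 0.97 and CCT2 at 0.95. In that fit CCT8, PFDN1 and TCP1 kept their calls as well. CCT5 at 0.32 and CCT6A at 0.57 lost theirs, and PFDN4 was called lower at -0.77. Of 9 HSP70, HSP110 and small HSP relatives 3 rose and 1 fell: HSPA4L rose by 1.19, HSPA14 by 0.98 and HSPA4 by 0.81, and CRYAB, a small heat shock protein at 2.39 FPKM or less, fell by 0.84. With the GC and length trend removed HSPA4L was at 0.52 (adjusted p = 0.0691, limma), HSPA4 at 0.32 and CRYAB at -0.43, none of them a call, and HSPA14 rose by 0.72. HSPA6, an HSP70 made only under strong stress in human cells, stayed at 0.32 FPKM or less in every library and was not tested.

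The heat shock factor list had no gene higher and 2 of 4 lower. HSF1 fell by 0.78 (SE 0.20, limma adjusted p = 0.0078) and HSF4 by 1.15 (SE 0.25, limma adjusted p = 0.0031). HSF1 had 37.1 and 42.6 FPKM in sh-TAF15 libraries, 43.8 FPKM in the sh-NC library, 97.4 and 66.2 FPKM in TIF1γ libraries, and 50.1, 45.1 and 60.1 FPKM in vector libraries. With the GC and length trend removed HSF1 was at -0.15 (adjusted p = 0.38, limma) and HSF4 at -0.42 (adjusted p = 0.22, limma), neither a call. Of 12 mitochondrial chaperones and proteases 2 rose, HSPA9 by 0.78 and YME1L1 by 1.08, and 2 fell, with HTRA2 at -0.98, and the median was -0.10. With the trend removed HSPA9 at 0.35 and HTRA2 at -0.36 were no longer called, and YME1L1 rose by 0.51. The co-chaperones STIP1 at 0.33 and AHSA1 at -0.11, which serve HSP90, were not called, nor was the small heat shock protein HSPB8 at 0.27. STIP1 became a call with the trend removed, at 0.68. AHSA1 turned to 0.07 without scaling and to 0.19 with libraries scaled to the same sum.

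In sh-TAF15 against sh-NC none of the 68 list genes was called in limma, and none reached an unadjusted p under 0.05, where 0.0575% and 5.64% of all genes did. The highest and lowest values among the genes with the lowest p of each list were 0.69 for HSCB, which serves iron-sulphur cluster assembly, and -0.86 for CHORDC1, an HSP90 co-chaperone.

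**Figure D5:**
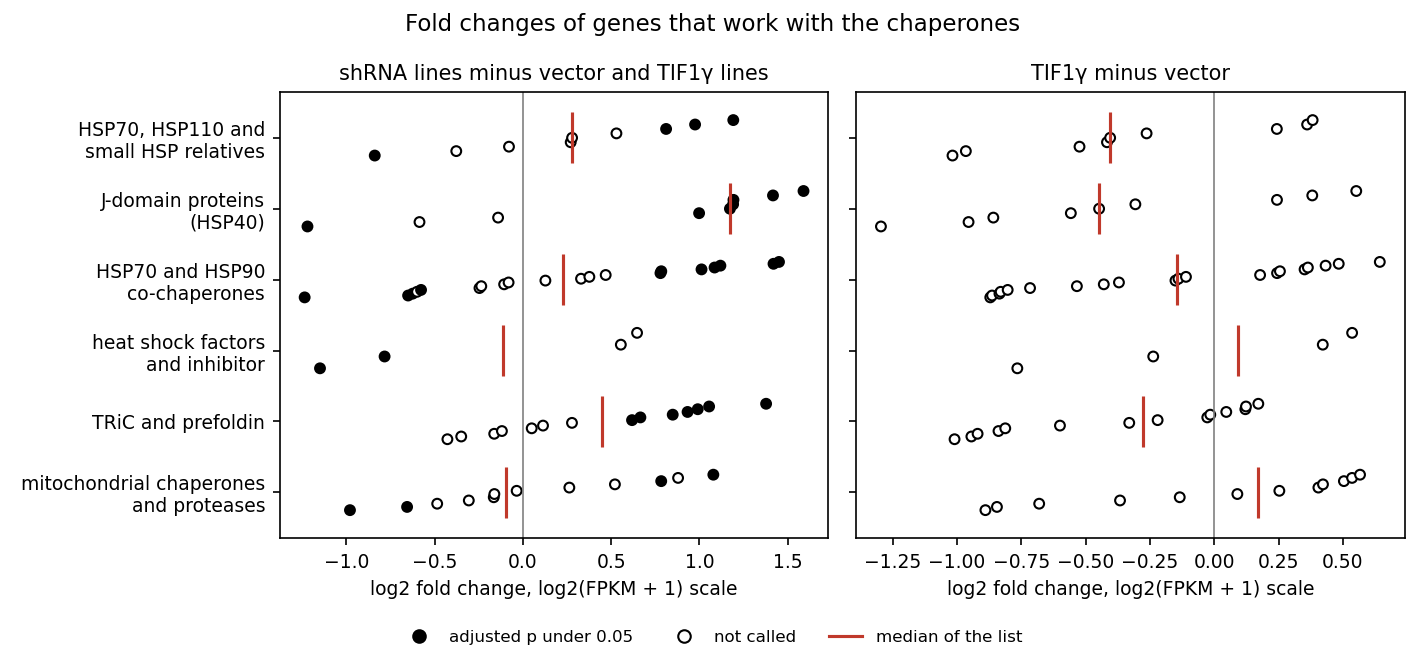
Log2 fold changes of the 68 tested list genes in the shRNA lines against the vector and TIF1γ lines (left) and in TIF1γ against vector cells (right); 1 point is 1 gene, filled where the adjusted p is under 0.05, and the line is the list's median. On the left 35 points are filled and the J-domain median is 1.17; on the right none is filled.

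Genes whose profile over the 8 libraries was nearest to a member were ranked by the root mean square difference of centred log2 levels, a description with no test. For HSPA1A the 3 nearest were ACAT2 at 0.144, TMPO-AS1 at 0.194 and MANF at 0.212, and HSPA1B ranked 8th. For HSP90AA1 they were ANLN at 0.23, DNAJA1 at 0.29 and CLSPN at 0.308, and HSPH1 ranked 9th. For HSPD1 they were PSMD14 at 0.0736, DEK at 0.0784 and LTV1 at 0.0796, and the nearest member, HSPH1, ranked 241st. All of these distances share the same libraries, so libraries that stand apart weigh on every pair.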

How the data were processed

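The submitters' processing notes name HISAT2 2.0.1, HTSeq 0.6.1, cutadapt 1.9.1 and the GRCh37 build. The deposited values are FPKM per Ensembl gene, and how the authors computed them is not given in the sources used here. No read totals come with them, so depth is unknown and no counting interval is given. Steps between low values put relative depths between 0.793 and 1.042 of vector replicate 1. Of 57879 identifiers 52324 had a symbol (GENCODE 29).

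Genes reaching 1 FPKM in 2 or more libraries were kept, 19 genes with a 0 beside 100 FPKM or more were set aside, and 13907 were tested. Libraries were brought to one scale by trimmed mean ratios (30% and 5% trimmed) and taken as log2(FPKM + 1). limma 3.58.1 in R 4.3.3 fitted all 4 groups at once (eBayes with trend and robust, 4 residual degrees of freedom), with p-values adjusted by Benjamini-Hochberg. The scripts were tested on simulated data with the measured spread, in which 200 genes were changed by known amounts. A change of 1 on the log2 scale was called for 0% of them, in TIF1γ against vector and in sh-TAF15 against sh-NC. A change of 2 was called for 85.5% and 60.5%. In these 2 comparisons, the lack of a call therefore does not show the lack of a change near 1. Transcript length and GC came from GENCODE 29, and promoter sequence from RefSeq (GRCh38.p14). Exact permutation tests used SciPy 1.17.1.

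Members and lists were chosen with earlier results of these data known. Named genes are the 10 members, TRIM33, set regulators and partners, the 2 lowest p-values of each list in each comparison, and the 3 nearest profiles. Alternatives covered pseudocount, filter, scaling, fit, GC and length, copies and each replicate.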

Additional observations from a re-analysis of the deposited data

Results flagged for a closer look

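Pseudogenes are not members, but 5 of those named after a member passed the filter and were tested with all other genes. The pseudogenes searched were 17 of HSPA8, 2 of DNAJB1, 2 of HSPB1, 18 of HSPD1 and 26 of HSPE1. Of these, 2 had values of at least 1 FPKM that were higher in both sh-TAF15 libraries than in the sh-NC library. The share of all genes in this order is not given here, so the count is no result about these pseudogenes as a set. HSPB1P1, identical to HSPB1 at 97.65% of aligned transcript bases, had 11.2 and 17.1 FPKM in sh-TAF15 libraries (mean 14.1) and was listed at 0 in the sh-NC library, as in the 5 TIF1γ and vector libraries. HSPE1P3 had 5.52 and 5.10 FPKM in sh-TAF15 libraries (mean 5.31), against 1.14 FPKM in the sh-NC library. HSPB1P1 passed the filter only through the 2 sh-TAF15 libraries, and the same values picked it out. Its test in sh-TAF15 against sh-NC therefore adds no support, and no fold is given because sh-NC is listed at 0. HSPE1P3, also picked out by this difference, stood at 1.49 on the log2 scale and was not called. The 1 control library gives no spread of its own.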

How the results depend on the processing

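The number of genes called moved most. For TIF1γ against vector, where 3 were called, it was 5 with a pseudocount of 0.1, with only the groups compared or with the genes at 0 beside high values kept, 0 without a filter, 0 with the GC and length trend removed (with or without the block), and 1 to 298 when each replicate was left out, with 0 to 3 members called. For sh-TAF15 against sh-NC, where 8 were called, it was 21 with a pseudocount of 0.1, 187 without a filter, 230 with only the groups compared, 2 with GC and length removed, and 0 to 50 when each replicate was left out. For the difference of these effects, where 6 were called, it was 103 without a filter, 2 with GC and length removed, and 1 to 18 without single replicates. For the difference and for sh-TAF15 against sh-NC, no alternative called a member.

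Samples share only a replicate number: same-numbered libraries had correlations of deviations from -0.373 to 0.172. With the replicate number as a block, 43 genes were called for TIF1γ, 52 for sh-TAF15, 31 for the difference and 1020 for sh-NC against vector, where 1547 were called without it. Block with GC and length removal gave 0, 1, 0 and 479 in the same order, and 2574 for the shRNA lines, where 5758 were called without either. The 4 members called in the shRNA lines then were HSPA8, HSPB1, HSPD1 and HSPE1.

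For sh-NC against vector, 1219 to 1742 genes and 1 member were called without single replicates, and 0 members without a filter, without scaling, or with GC and length removed, with or without the block. For the shRNA lines, 4088 to 6362 genes and 5 to 7 members were called without single replicates. HSPA8, HSPB1 and HSPD1 kept their calls in all 18 alternatives, HSPH1 and HSPE1 in 16 and HSP90AA1 in 15. Summing members with their pseudogenes was chosen after seeing the data.

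Among the members and list genes followed through the alternatives, fold changes that changed sign were all of uncalled genes. Of the other list genes in the shRNA lines, STUB1 was called at -0.62 and turned to 0.19, not a call, with the GC and length trend removed. CDC37 went from -0.25 to 0.42 and SGTA from -0.08 to 0.60, both uncalled before and called with that trend removed. For TIF1γ, DNAJB1 went to -0.124 scaled to the same sum, -0.097 with GC and length removed and -0.022 with the block added, and HSPB1 went to -0.101 with GC and length removed and -0.054 with the block added. Without single replicates, DNAJB1 ran from -0.045 to 0.23, HSPB1 from -0.010 to 0.88, HSPA1A from -1.14 to 0.33, HSPA1B from -0.71 to 0.096 and HSPE1 from -0.76 to 0.0545, with the turn at TIF1γ replicate 2 or 3. For the shRNA lines, HSPA1A went to 0.069 unscaled, 0.19 scaled to the same sum, 0.48 with GC and length removed and 0.44 with the block added, and from -0.47 to 0.26 without single replicates. HSPA1B ran from -0.061 to 0.33 without single replicates. AHSA1 went to 0.070 unscaled, 0.19 scaled to the same sum, 0.18 with GC and length removed and 0.16 with the block added, and ran from -0.26 to 0.035 without single replicates. For sh-TAF15, HSP90AA1 went to 0.14 with the block and 0.31 with the block and GC and length removed. The causes of these changes were not tested.

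Scaling to the same sum moved the median of all genes to -0.15 for TIF1γ and to 0.25 for the shRNA lines, and leaving libraries unscaled moved it to 0.15 for the shRNA lines. The lone sh-NC library could not be left out, so its weight in 4 of the 5 comparisons was not measured.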
